A study of Mus musculus with 6 samples.

Results

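The 9 genes described here belong to the gelatinase (tertiary) granules and the late maturation of neutrophils: Mmp8, Mmp9, Mmp25, Adam8, Retnlg, Arg2, Cd101, Padi4 and Itgb2l. They were taken by name, with earlier results of these data known, from a table of 28987 mouse genes, and all 9 are in it. RNA sequencing was done on 6 libraries of bone marrow cells from C57BL/6 mice that carried CBL and RUNX1 mutations, described by the submitters as a mutant clone of MDS (myelodysplastic syndrome). The groups were mutant Ly6G+ myeloid cells of mice given Mdivi-1 (2 libraries) or vehicle (2 libraries), and mutant CD117-selected hematopoietic stem and progenitor cells, called HSCPs, of mice given Mdivi-1 (1 library) or vehicle (1 library). Every group carries the mutations, so no library shows these genes without them. The alleles, the dose, the length of treatment and the age of the mice were not stated in the sources used here. The agent, Mdivi-1, is known as an inhibitor of mitochondrial division that was made against the GTPase Drp1. Marrow was collected from individual mice, but the labels do not say which mouse gave which library, and the p-values therefore describe only the scatter among libraries, which may be technical.

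Neutrophils fill their granules in order while they mature in the marrow. Primary granules with myeloperoxidase come first, secondary granules with lactoferrin next, and gelatinase granules with matrix metalloproteinase 9 late, before the surface receptors of the mature cell appear. Gelatinase granules leave the cell more readily than the earlier kinds and supply enzymes that cut matrix proteins. Of the proteases, Mmp9 encodes gelatinase B, Mmp8 encodes neutrophil collagenase (in human neutrophils a secondary granule protein), Mmp25 encodes a membrane-anchored metalloproteinase of leukocytes, and Adam8 encodes a membrane protease with a disintegrin domain. Retnlg encodes a secreted resistin-like protein of rodents. Arg2 encodes the mitochondrial arginase and Padi4 a nuclear enzyme that turns arginine in histones into citrulline, a step in the release of neutrophil extracellular traps. Cd101 encodes a surface protein that separates mature from immature mouse neutrophils, and Itgb2l encodes a protein of mouse marrow neutrophils that resembles the integrin beta 2 chain.

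Promoters of 7 of the 9 genes, as RefSeq gives them on GRCm38.p6, were searched for letters bound by factors of granulocyte development, and 5 are shown because they belong to genes that moved in opposite directions with Mdivi-1 in Ly6G+ cells. Each runs 5′ to 3′ from 250 bases before the annotated start of transcription to 50 after it, and positions below count from that start as 0. Capitals mark matches, on either strand, to TTGCNNAA for C/EBP factors, GAGGAA for PU.1 and TGTGGT for RUNX factors, and to TATAA on the gene's own strand between -40 and -20. No matches overlapped. The first set holds genes that rose with Mdivi-1 and the second genes that fell.
Retnlg, chr16:48872358-48872657, plus strand: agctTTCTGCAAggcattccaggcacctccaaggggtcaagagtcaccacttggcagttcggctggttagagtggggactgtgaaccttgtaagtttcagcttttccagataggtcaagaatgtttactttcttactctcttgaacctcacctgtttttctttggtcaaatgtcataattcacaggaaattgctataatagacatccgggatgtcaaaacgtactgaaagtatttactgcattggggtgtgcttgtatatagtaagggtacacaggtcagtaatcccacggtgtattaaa
Cd101, chr3:101029504-101029803, minus strand: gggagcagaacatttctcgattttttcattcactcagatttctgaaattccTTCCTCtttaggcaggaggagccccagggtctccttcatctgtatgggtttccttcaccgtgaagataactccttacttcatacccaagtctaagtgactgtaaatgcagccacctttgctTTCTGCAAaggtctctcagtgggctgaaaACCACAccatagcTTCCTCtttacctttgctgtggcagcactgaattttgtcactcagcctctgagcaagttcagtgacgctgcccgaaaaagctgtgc
Mmp8, chr9:7558179-7558478, plus strand: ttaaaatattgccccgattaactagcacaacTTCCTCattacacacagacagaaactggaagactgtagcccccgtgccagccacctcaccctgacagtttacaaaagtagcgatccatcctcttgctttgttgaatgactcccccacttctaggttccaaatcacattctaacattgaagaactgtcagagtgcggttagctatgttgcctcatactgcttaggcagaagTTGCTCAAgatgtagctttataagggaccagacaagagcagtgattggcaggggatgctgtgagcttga
Padi4, chr4:140774154-140774453, minus strand: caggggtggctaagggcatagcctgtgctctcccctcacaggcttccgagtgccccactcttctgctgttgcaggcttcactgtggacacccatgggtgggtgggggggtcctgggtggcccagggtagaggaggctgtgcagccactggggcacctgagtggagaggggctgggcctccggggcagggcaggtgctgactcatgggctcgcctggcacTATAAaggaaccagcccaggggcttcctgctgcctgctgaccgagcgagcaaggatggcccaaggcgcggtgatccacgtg
Itgb2l, chr16:96443565-96443864, minus strand: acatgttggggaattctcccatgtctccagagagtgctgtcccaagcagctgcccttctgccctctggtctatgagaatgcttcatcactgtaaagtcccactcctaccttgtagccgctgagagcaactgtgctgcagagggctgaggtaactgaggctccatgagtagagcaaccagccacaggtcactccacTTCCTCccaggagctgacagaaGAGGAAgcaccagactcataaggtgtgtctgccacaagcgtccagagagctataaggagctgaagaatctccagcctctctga

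A C/EBP match stood in 4 of the 7 promoters, those of Retnlg (-246 to -239), Adam8 (-219 to -212), Cd101 (-78 to -71) and Mmp8 (-19 to -12), against 10.8% of all 32851 promoters of that length. The windows of Padi4, Itgb2l and Mmp25 held no C/EBP match. A PU.1 match stood in 4 of the 7, against 28.3% of all promoters: in Mmp8, in Mmp25 and, at a pair of places each, in Cd101 and Itgb2l. Cd101 alone held the RUNX match (-49 to -44), which 16.8% of all promoters hold. Counted from the RefSeq start, Padi4 alone held the TATAA match (-31 to -27), which 3.5% hold. Retnlg, Mmp8 and Itgb2l also hold the letters TATAA, outside the window searched. In GENCODE M21 Mmp8 starts further downstream, at 7558456, and windows counted from GENCODE starts were not searched. These are matches of letters in a short window, binding was not measured, and a relation between matches and the response to Mdivi-1 was not tested. Promoters of Mmp9 and Arg2 are not shown.

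**Figure D1:**
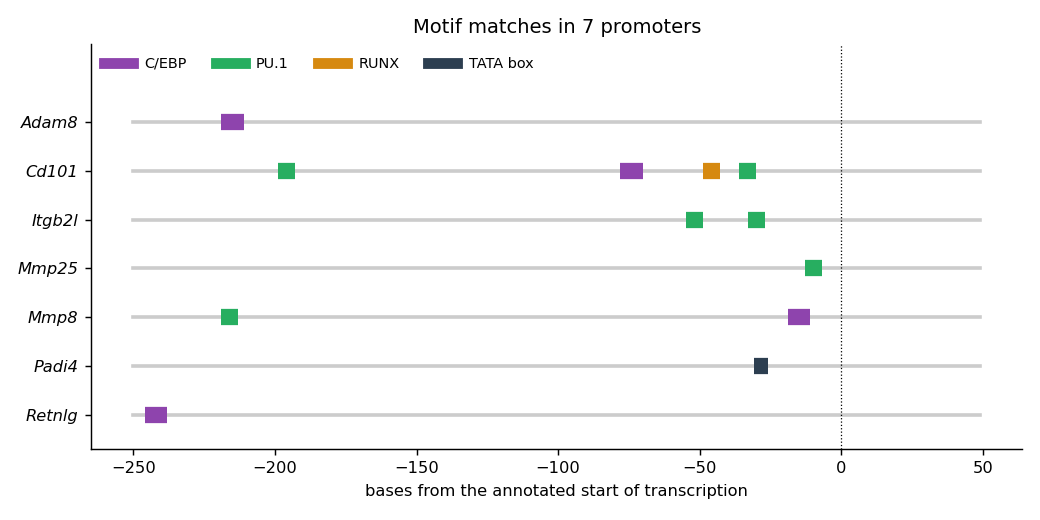
Positions of motif matches in the 7 promoters, in bases from the annotated start of transcription, with genes in alphabetical order and a colour for each motif. C/EBP matches lie at -246 in Retnlg, -219 in Adam8, -78 in Cd101 and -19 in Mmp8.

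The deposited values are TPM, each gene's share of a library's transcripts after correction for length, which allow levels to be compared between genes. Each library summed to between 963243.1 and 979168.3 TPM, and between 11456 and 11930 genes reached 1 TPM. TPM holds no read totals, so depth is unknown. The sort markers followed their labels: Ly6g was at 791 and 642 TPM in Ly6G+ cells with Mdivi-1, 814 and 840 TPM in Ly6G+ cells with vehicle, 90.1 TPM in HSCPs with Mdivi-1 and 187 TPM in HSCPs with vehicle. Kit, which encodes CD117, was at 9.52 and 8.73 TPM in Ly6G+ cells with Mdivi-1, 10.4 and 14.1 TPM in Ly6G+ cells with vehicle, 64.9 TPM in HSCPs with Mdivi-1 and 72.2 TPM in HSCPs with vehicle. Transcripts of the neutrophil lineage were also abundant in the HSCPs. The 5 markers Ly6g, S100a8, S100a9, Csf3r and Cxcr2 together held 68472 TPM there with Mdivi-1 and 74568 TPM with vehicle. In the 4 Ly6G+ libraries they held 194205 to 206829 TPM. S100a8 and S100a9 made up nearly all of these sums. In HSCPs Csf3r was at 115 TPM with Mdivi-1 and 114 TPM with vehicle, and Cxcr2 at 49.2 TPM with Mdivi-1 and 55.9 TPM with vehicle. In bulk samples, fewer cells of a type and less RNA per cell cannot be told apart.

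The 9 genes covered a wide range of levels, led by Retnlg. In Ly6G+ cells with Mdivi-1 the order was Retnlg, Mmp9, Mmp8, Itgb2l, Adam8, Padi4, Mmp25, Cd101 and Arg2, from 32536 ± 69.9 TPM for Retnlg to 52.9 ± 0.818 TPM for Arg2 (SD, n = 2). Among neighbours in that order only Cd101 and Arg2 overlapped between libraries. With vehicle the order was the same except that Padi4 stood above Adam8, and no neighbours overlapped. Retnlg made up 3.32% and 3.33% of all TPM in the Ly6G+ libraries with Mdivi-1, and 2.31% and 2.34% with vehicle. In HSCPs it made up 0.147% with Mdivi-1 and 0.197% with vehicle, and was still the highest of the 9. Itgb2l ranked above Mmp8 in both HSCP libraries and below it in all 4 Ly6G+ libraries.

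**Figure D2:**
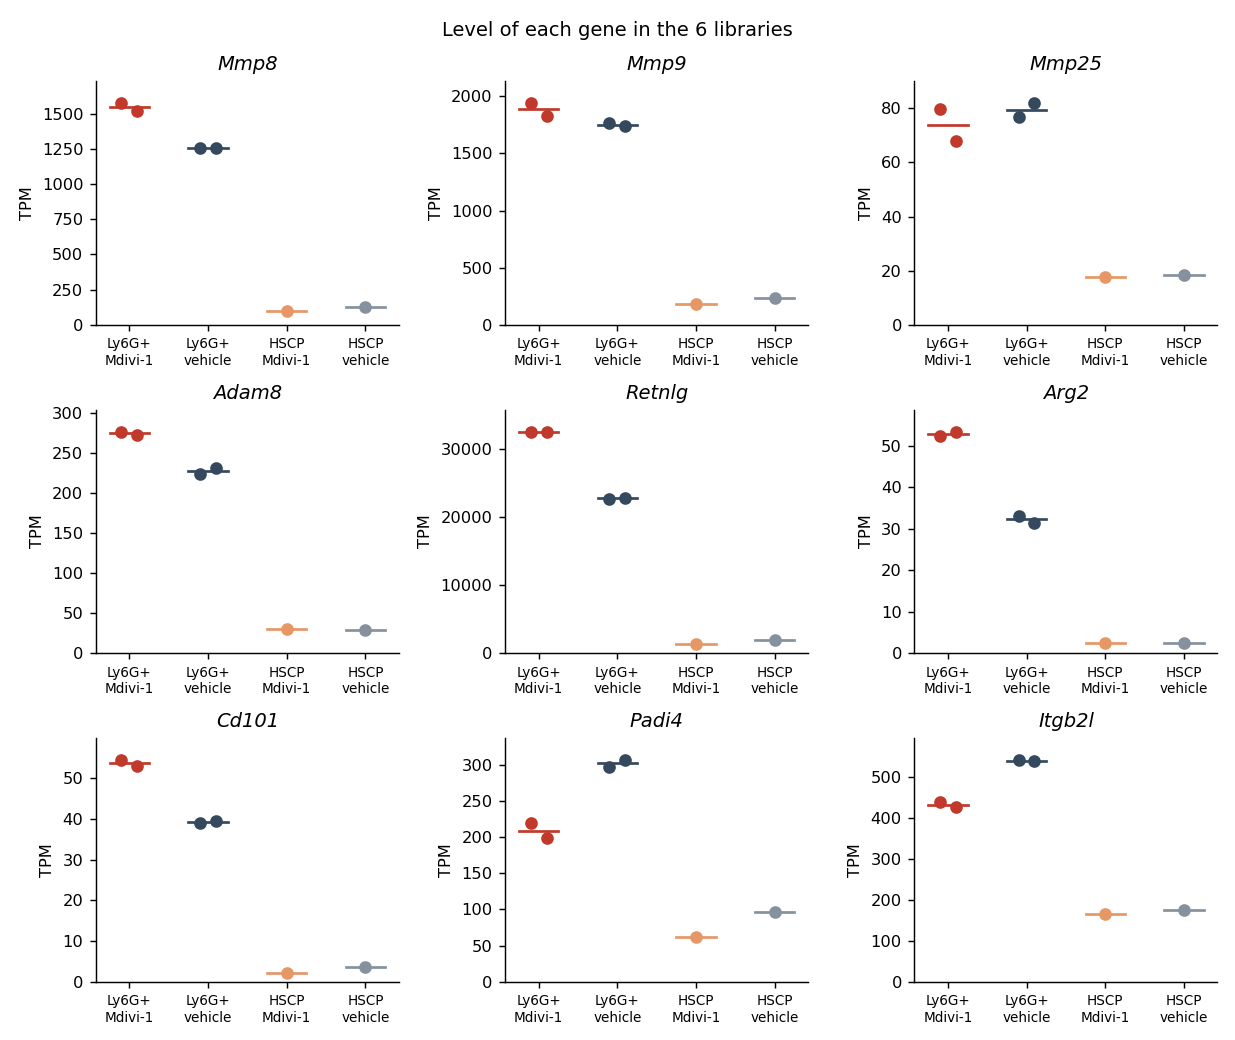
TPM of each gene (vertical axes, each from 0) in the 6 libraries, with 1 point per library and a line at the group mean. In Ly6G+ cells the Mdivi-1 points lie above the vehicle points for Retnlg, Mmp8, Mmp9, Adam8, Arg2 and Cd101, and below them for Padi4 and Itgb2l, while for Mmp25 the ranges overlap, with 1 Mdivi-1 point between the vehicle points and 1 below both.

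Mdivi-1 against vehicle in Ly6G+ cells compares the levels of these genes between the treatment arms in bulk sorted cells. Of the 9 genes, 5 rose (Arg2, Retnlg, Cd101, Mmp8 and Adam8), 2 fell (Padi4 and Itgb2l) and 2 did not pass (Mmp9 and Mmp25). Among all 11775 genes tested, 2.46% were called higher and 4.24% lower (limma on log2(TPM + 1), Benjamini-Hochberg adjusted p under 0.05). The 9 genes were chosen with earlier results of these data known, so their number of calls is no independent evidence. The median log2 change was 0.27 over the 9 genes and -0.05 over all genes tested. The calls rest on all 4 libraries together, and most were lost when 1 library was left out, which leaves 1 library in an arm. The arms did not overlap in any of the 7 called genes. Their direction could therefore not change in such a fit, and that it was kept adds no evidence. With no filter on expression 2 of the 9 passed, and with a prior for the variance that was neither trended nor robust only Arg2 did. Among all genes, 290 were called higher and 499 lower, a split that became 373 and 386 after median-of-ratios scaling, with 5 of the 9 still called higher and 2 lower.

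The largest rise of the 9 was that of the arginase gene Arg2 (chromosome 12, 79130777 to 79156301, mm10, 8 exons). It stood at 52.3 and 53.4 TPM with Mdivi-1, against 33.2 and 31.4 TPM with vehicle. The groups did not overlap, and the log2 change was 0.70 with SE 0.064, or 1.64-fold (limma adjusted p = 0.00978). Arg2 shares 285 exon bases with Vti1b, a gene on the opposite strand, and 76.4% of its 31-base words occur in no other gene. Vti1b was at 55.0 and 50.8 TPM with Mdivi-1 and at 48.2 and 46.5 TPM with vehicle, and since strand was not stated, the reads of this overlap cannot be assigned with confidence.

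The resistin-like gene Retnlg (chromosome 16, 48872621 to 48874496, 4 exons) had the highest level. It was at 32487 and 32586 TPM with Mdivi-1, against 22645 and 22902 TPM with vehicle. The libraries of each arm lay close together and the arms were far apart, giving a log2 change of 0.51 with SE 0.036, or 1.43-fold (limma adjusted p = 0.00562). The maturation marker gene Cd101 (chromosome 3, 100993529 to 101029556, 9 exons) was at 54.4 and 53.0 TPM with Mdivi-1, against 38.9 and 39.3 TPM with vehicle. Its arms did not overlap, and its log2 change was 0.45 with SE 0.059, or 1.37-fold (limma adjusted p = 0.0232).

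Of the 3 metalloproteinase genes, 1 passed the test, and differences between their changes were not tested. The collagenase gene Mmp8 (chromosome 9, 7558456 to 7568485, 10 exons) was at 1576 and 1520 TPM with Mdivi-1, against 1257 and 1254 TPM with vehicle, without overlap (log2 change 0.30, SE 0.045, limma adjusted p = 0.0305). The gelatinase gene Mmp9 (chromosome 2, 164940780 to 164955850, 13 exons), which gives the granule its name, was at 1940.5 and 1833 TPM with Mdivi-1, against 1763 and 1745 TPM with vehicle. Its arms did not overlap either, but the change of 0.10 (SE 0.049, 95% interval -0.02 to 0.23) did not pass (limma adjusted p = 0.257). Groups without overlap are common in this comparison, at 21% of all genes tested in the higher and 36.7% in the lower direction. Mmp25 (chromosome 17, 23628311 to 23645277, 10 exons) was at 79.8 and 68.1 TPM with Mdivi-1, against 76.9 and 81.9 TPM with vehicle. These values overlap, and the change of -0.11 (95% interval -0.35 to 0.13) did not pass (limma adjusted p = 0.532). The membrane protease gene Adam8 (chromosome 7, 139978932 to 139992562, 24 exons) was at 276 and 273 TPM with Mdivi-1, against 223 and 231 TPM with vehicle (log2 change 0.27, SE 0.050, limma adjusted p = 0.0466).

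The genes that fell were the histone-modifying enzyme gene Padi4 and the integrin-like gene Itgb2l. Padi4 (chromosome 4, 140745865 to 140774236, 16 exons) was at 219 and 199 TPM with Mdivi-1, against 297 and 306 TPM with vehicle. Both Mdivi-1 libraries lay below both vehicle libraries, at 0.693 of the vehicle mean (log2 change -0.53, SE 0.066, limma adjusted p = 0.0208). Itgb2l (chromosome 16, 96422288 to 96443619, 16 exons) was at 439.8 and 427 TPM with Mdivi-1, against 542 and 539.8 TPM with vehicle. Again the arms did not overlap, and the Mdivi-1 mean was 0.801 of the vehicle mean (log2 change -0.32, SE 0.047, limma adjusted p = 0.0293).

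Ratios of some pairs of the genes within a library also differed between the arms without overlap. Adam8 rose and Padi4 fell without overlap, so their ratio had to separate and adds no evidence to their calls. The ratio of Adam8 to Padi4 was 1.26 and 1.37 with Mdivi-1, against 0.751 and 0.755 with vehicle, so that the order of the pair was reversed. The ratio of Mmp9 to Mmp8 was 1.23 and 1.21 with Mdivi-1, against 1.40 and 1.39 with vehicle. These ratios do not depend on how a library is scaled. Summed over the 8 genes other than Retnlg, the level was 4638 and 4425 TPM with Mdivi-1, against 4231 and 4229 TPM with vehicle.

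**Figure D3:**
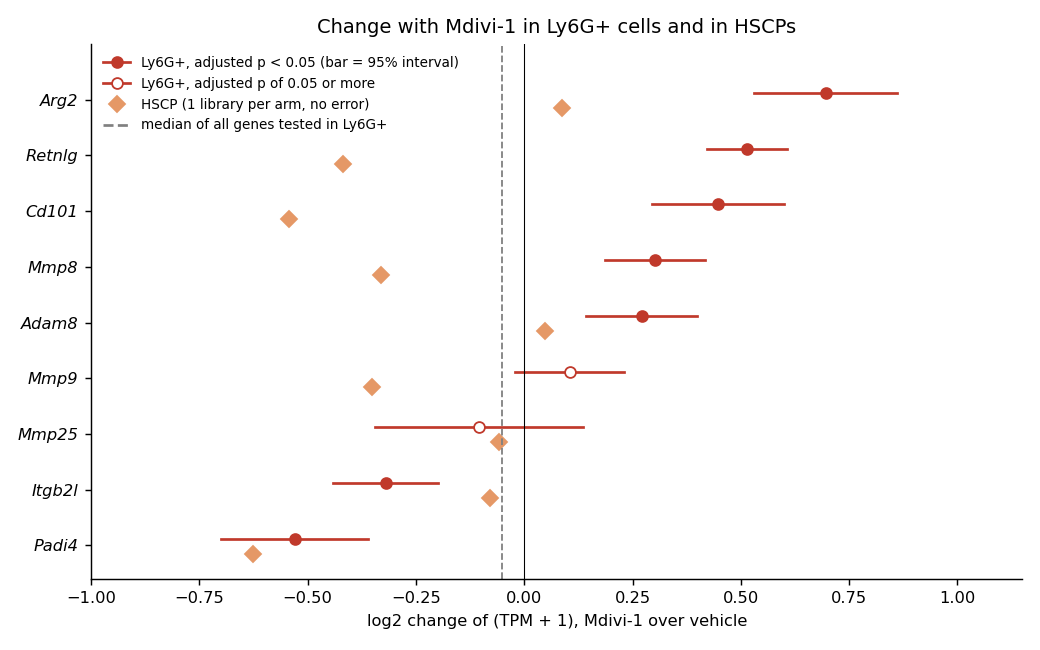
Log2 change of (TPM + 1) for Mdivi-1 over vehicle (horizontal axis) of each gene in Ly6G+ cells (circles, with 95% limma intervals from 2 against 2 libraries, filled where the adjusted p is under 0.05) and in HSCPs (diamonds, 1 against 1 library, no error). In Ly6G+ cells the genes span -0.53 for Padi4 to 0.70 for Arg2, and the HSCP ratios of Retnlg, Cd101, Mmp8 and Mmp9 lie on the other side of 0 from their Ly6G+ changes.

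Other genes of the late stages were compared through lists. Of 32 other late neutrophil genes tested, 21 rose, 0 fell and 11 did not pass, with a median log2 change of 0.47. Examples are the interleukin-1 decoy receptor gene Il1r2 (2.53), Wfdc17 (1.55) and Stfa2l1 (1.35) and Stfa2 (1.32), members of a stefin family of near-identical copies whose reads may be split among them. Many of these genes were already known to rise in these libraries when the list was written, so it is no independent evidence of their direction. Of 12 other gelatinase granule and secretory vesicle genes tested, 3 rose, 1 fell and 8 did not pass (median 0.12). The endotoxin co-receptor gene Cd14 rose by 1.52, the membrane fusion gene Snap23 by 0.60 and the formyl peptide receptor gene Fpr1 by 0.39, and the oxidase subunit gene Cybb fell by 0.37.

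Earlier granules gave other values, in lists that were also written with earlier results of these data known. Of 11 secondary granule genes tested, 4 fell, 2 rose and 5 did not pass (median -0.26). The cathelicidin gene Camp fell by 0.65, Ngp by 0.52 and the lactoferrin gene Ltf by 0.50, and the haptoglobin gene Hp rose by 0.61. Of 9 primary granule genes tested, 1 fell, the ficolin gene Fcnb (-0.87), and 8 did not pass, among them Mpo (0.07), Prtn3 (0.0002) and Elane (-0.06). The median of that list was 0.0003, against -0.05 for all genes tested.

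**Figure D4:**
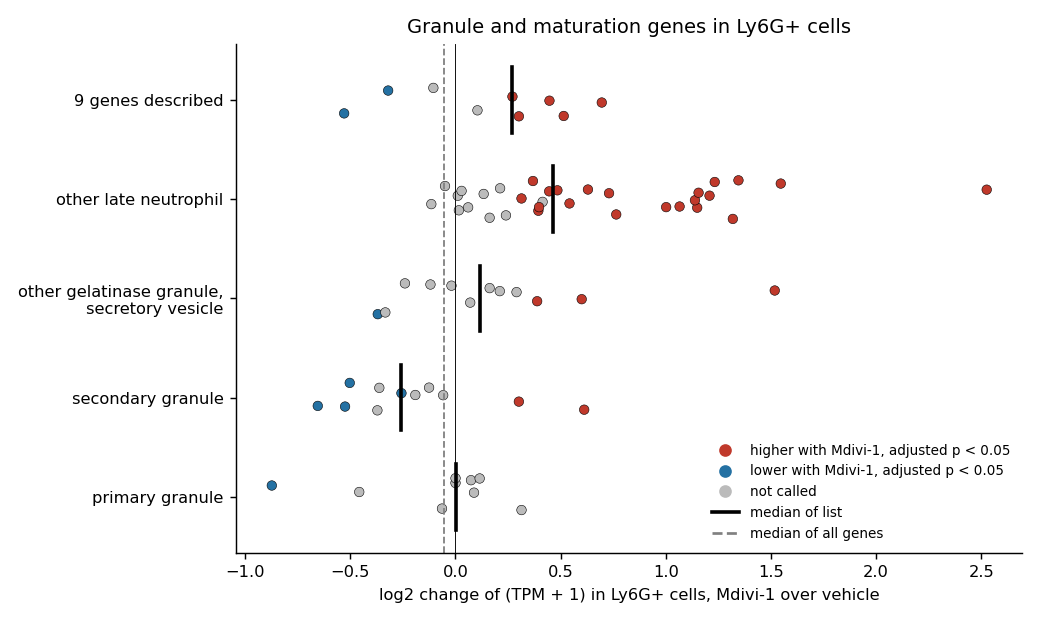
Log2 change of (TPM + 1) for Mdivi-1 over vehicle in Ly6G+ cells (horizontal axis), with 1 point per tested gene, coloured by its limma call, a black bar at each list's median and a dashed line at the median of all genes tested. List medians are 0.27 for the 9 genes, 0.47 for other late neutrophil genes, 0.12 for other gelatinase granule and secretory vesicle genes, -0.26 for secondary granule genes and 0.0003 for primary granule genes.

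Markers of other cell types moved in the same libraries. The 6 B cell markers summed to 20.4 TPM in each Ly6G+ library with Mdivi-1, against 107 and 111 TPM with vehicle, and 5 of 6 fell. Both Mdivi-1 libraries lay well below both vehicle libraries. The 6 megakaryocyte markers summed to 115 and 99.3 TPM with Mdivi-1, against 251 and 248 TPM with vehicle, and 5 of 6 fell. The 5 basophil and mast cell markers summed to 162 and 171 TPM with Mdivi-1, against 484 and 490 TPM with vehicle, and 5 of 5 fell. Megakaryocytes, basophils and mast cells are other marrow cells that do not carry neutrophil granules. The sums of the 5 stem and progenitor markers were 63.2 and 63.9 TPM with Mdivi-1, against 85.3 and 87.8 TPM with vehicle (2 of 5 fell), and those of the 6 erythroid markers 1270 and 1305 TPM with Mdivi-1, against 1585 and 1654 TPM with vehicle (1 of 6 fell). The 5 dendritic cell markers summed to 15.3 and 12.4 TPM with Mdivi-1, against 19.97 and 20.6 TPM with vehicle (1 of 4 tested fell). In all of these lists the arms did not overlap, and the Mdivi-1 libraries were the lower ones. The 6 monocyte and macrophage markers overlapped, at 537 and 531 TPM with Mdivi-1, against 542 and 516 TPM with vehicle (1 of 6 fell). The 5 eosinophil markers were at 61.8 and 62.6 TPM with Mdivi-1, against 65.6 and 71.4 TPM with vehicle, and the 6 T and NK cell markers at 4.79 and 4.12 TPM with Mdivi-1, against 6.86 and 5.50 TPM with vehicle, with 0 of 4 tested past the limma threshold in each list. No marker was at 0 in every library. The 5 neutrophil lineage markers summed to 195279 and 206829 TPM with Mdivi-1, against 206468 and 194205 TPM with vehicle. S100a8 and S100a9 made up nearly all of these sums. Of the 5 markers, Cxcr2 (0.76) and Csf3r (0.54) rose, and S100a8 (0.02), S100a9 (-0.02) and Ly6g (-0.21) did not pass. The part of these shifts in the changes of the 9 genes was not tested.

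In HSCPs, which have 1 library per arm and so no replicate check, 0 of the 9 genes differed 2-fold or more between Mdivi-1 and vehicle. Over 11504 genes compared there, 0.504% were at least 2-fold higher and 0.887% at least 2-fold lower with Mdivi-1. Ratios were below 1 for 7 of the 9, and for 45.2% of all genes. Padi4 was at 62.5 TPM with Mdivi-1, against 97.0 TPM with vehicle (log2 ratio -0.63), Cd101 at 2.22 TPM with Mdivi-1, against 3.69 TPM with vehicle (-0.54), and Retnlg at 1422 TPM with Mdivi-1, against 1902 TPM with vehicle (-0.42). These were the lowest ratios of the 9. Mmp9 was at 182 TPM with Mdivi-1, against 232 TPM with vehicle (-0.35), and Mmp8 at 99.4 TPM with Mdivi-1, against 125 TPM with vehicle (-0.33). The others lay nearer to equality, with Itgb2l at 165 TPM with Mdivi-1, against 175 TPM with vehicle, Mmp25 at 17.6 TPM with Mdivi-1, against 18.3 TPM with vehicle, Adam8 at 29.7 TPM with Mdivi-1, against 28.7 TPM with vehicle, and Arg2 at 2.58 TPM with Mdivi-1, against 2.37 TPM with vehicle. Only Adam8 and Arg2 of the 9 were higher with Mdivi-1. The summed level of all 9 was 1983 TPM with Mdivi-1, against 2584 TPM with vehicle, and Ly6g was at 90.1 TPM with Mdivi-1, against 187 TPM with vehicle. Summed markers of megakaryocytes were at 158 TPM with Mdivi-1, against 318 TPM with vehicle, and those of eosinophils at 368 TPM with Mdivi-1, against 662 TPM with vehicle. B cell markers summed to 42.3 TPM with Mdivi-1, against 68.8 TPM with vehicle, basophil and mast cell markers to 175 TPM with Mdivi-1, against 229 TPM with vehicle, and stem and progenitor markers to 341 TPM with Mdivi-1, against 397 TPM with vehicle. At least 2-fold lower with Mdivi-1 were 4 of 6 megakaryocyte markers, 2 of 4 B cell markers and 1 of 4 dendritic cell markers compared, and 0 of 5 eosinophil markers. The monocyte and macrophage sum was 273 TPM with Mdivi-1, against 291 TPM with vehicle, and the erythroid sum was 2991 TPM with Mdivi-1, against 2819 TPM with vehicle. The part of these marker shifts in the ratios was not tested.

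The treatment effect in Ly6G+ cells minus that in HSCPs was tested over all 6 libraries, where the lone HSCP libraries are assumed to vary like the Ly6G+ libraries. The difference was largest among the 9 for Cd101 (0.99, SE 0.122, limma adjusted p = 0.122) and Retnlg (0.93, SE 0.069, limma adjusted p = 0.0838), followed by Mmp8 (0.63, limma adjusted p = 0.135), Arg2 (0.61, limma adjusted p = 0.266) and Mmp9 (0.46, limma adjusted p = 0.241). It was 0.22 for Adam8, 0.10 for Padi4, -0.05 for Mmp25 and -0.24 for Itgb2l. Cd101 and Arg2 were low in HSCPs, near the pseudocount of 1 TPM. With a pseudocount of 0.1 the difference was 1.17 for Cd101 and 0.59 for Arg2. None of the 9 passed, and limma called 0% of the 12338 genes tested. At an unadjusted limma p under 0.05 stood 6 of the 9 genes and 11.3% (1398) of all genes. A difference between the populations in the response of these genes was not shown. Padi4 was lower with Mdivi-1 in both populations, and for it the 95% interval of the difference ran from -0.21 to 0.40.

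Ly6G+ cells against HSCPs addresses how the genes differ between the sorted populations. All 9 were higher in Ly6G+ cells, against a background of 22.2% of 12338 genes called higher and 50.3% lower (limma with treatment as covariate, adjusted p under 0.05). In every gene the lowest Ly6G+ library exceeded the highest HSCP library, which held for 23.5% of all genes tested, while the reverse held for 52.5%. The median log2 difference was 3.14 over the 9 genes and -0.35 over all genes tested. That all-gene median moved to -0.01 after median-of-ratios scaling and to -0.07 after upper-quartile scaling, and all 9 stayed called higher under both. The split of 2736 higher and 6202 lower calls over all genes became 4157 and 4196 under the first of these scalings.

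The genes follow in order of the size of this difference. Retnlg averaged 27655 ± 5638 TPM in Ly6G+ cells (SD, n = 4 over both treatments) and 1662 ± 339 TPM in HSCPs (SD, n = 2), a log2 difference of 4.05 with SE 0.206 (limma adjusted p = 3.57e-05). Mmp8 averaged 1402 ± 170 TPM in Ly6G+ cells and 112 ± 18.3 TPM in HSCPs (3.63, limma adjusted p = 8.12e-06). Both transcripts were also present in the HSCP libraries, at lower levels. Arg2 averaged 42.6 ± 11.9 TPM in Ly6G+ cells and 2.47 ± 0.148 TPM in HSCPs (3.61, limma adjusted p = 8.15e-06), and Cd101 46.4 ± 8.44 TPM in Ly6G+ cells and 2.95 ± 1.04 TPM in HSCPs (3.59, limma adjusted p = 2.55e-05). At such low HSCP levels the pseudocount of 1 TPM lowers the log2 difference. Mmp9, at 1820 ± 88.7 TPM in Ly6G+ cells and 207 ± 35.7 TPM in HSCPs (3.14), and Adam8, at 251 ± 27.5 TPM in Ly6G+ cells and 29.2 ± 0.722 TPM in HSCPs (3.05), came next. The smallest differences were those of Mmp25, at 76.7 ± 6.08 TPM in Ly6G+ cells and 17.9 ± 0.534 TPM in HSCPs (2.03), Padi4, at 255 ± 54.3 TPM in Ly6G+ cells and 79.8 ± 24.4 TPM in HSCPs (1.67), and Itgb2l, at 487 ± 62.5 TPM in Ly6G+ cells and 170.1 ± 6.70 TPM in HSCPs (1.504). In ratios of means these values run from 17.2-fold for Arg2 to 2.86-fold for Itgb2l.

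The same 4 Ly6G+ libraries, with Mdivi-1 and with vehicle, serve both the comparison of populations and that of treatments. Values from the pair of comparisons are therefore not independent and are given side by side only. The 3 genes with the smallest difference between populations, Mmp25, Padi4 and Itgb2l, had log2 changes of -0.11, -0.53 and -0.32 with Mdivi-1 in Ly6G+ cells. The 4 with the largest, Retnlg, Mmp8, Arg2 and Cd101, had 0.51, 0.30, 0.70 and 0.45. Mmp9 and Adam8, whose differences between populations lay between those of the genes just named, had 0.10 and 0.27. A relation between the pair of comparisons was not tested. Within each treatment, the difference between populations was 4.51 with Mdivi-1 and 3.58 with vehicle for Retnlg, and 4.09 with Mdivi-1 and 3.10 with vehicle for Cd101. For Mmp25 it was 2.01 with Mdivi-1 and 2.06 with vehicle.

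**Figure D5:**
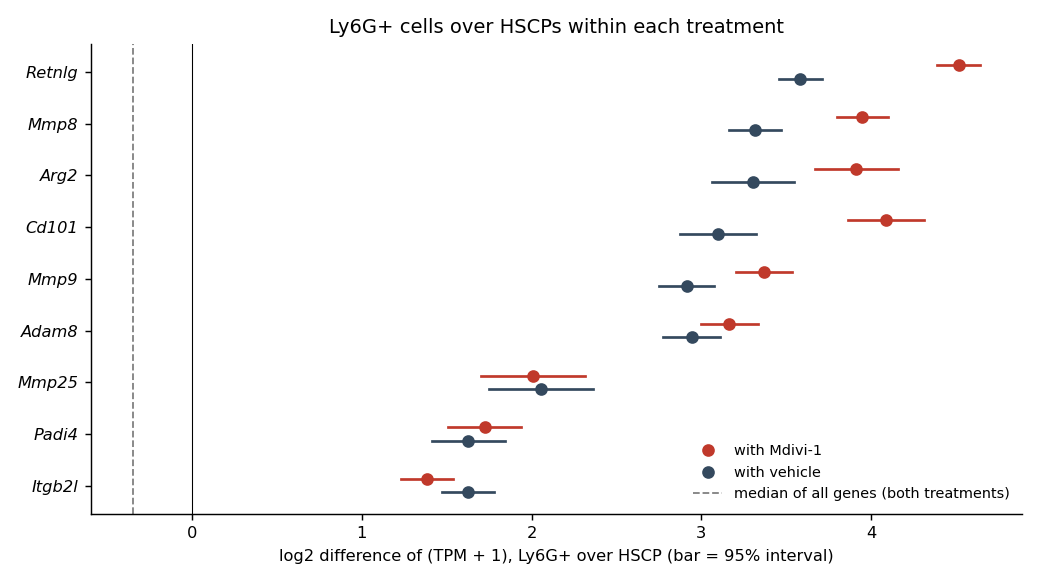
Log2 difference of (TPM + 1), Ly6G+ over HSCP (horizontal axis, with 95% limma intervals), of each gene with Mdivi-1 (red) and with vehicle (dark blue), with a dashed line at the median of all genes tested. Differences run from 1.38 for Itgb2l with Mdivi-1 to 4.51 for Retnlg with Mdivi-1.

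Other lists placed these differences among the stages. Of 32 other late neutrophil genes tested, 31 were higher in Ly6G+ cells and 1 did not pass (median log2 difference 2.28). Of 13 other gelatinase granule and secretory vesicle genes, 10 were higher, 1 was lower and 2 did not pass (median 1.66), and of 11 secondary granule genes 10 were higher and 1 did not pass (median 1.22). Of 9 primary granule genes, 0 were higher, 7 were lower and 2 did not pass (median -2.64).

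Several of the 9 genes sit beside paralogues that were near 0 in these cells. Mmp8 lies in a cluster on chromosome 9 with Mmp13, Mmp12, Mmp1b, Mmp3, Mmp10, Mmp27, Mmp20 and Mmp7 within 500000 bases. The highest of these in any library was Mmp27 at 1.73 TPM. Retnlg lies near Retnla and Retnlb, which reached 2.06 and 1.82 TPM at most. Among the neighbours of Padi4 on chromosome 4, Padi6, Padi3 and Padi1 reached 0.268, 1.34 and 0.034 TPM at most. Padi2, another enzyme that citrullinates proteins, was at 6.65 and 7.37 TPM with Mdivi-1, against 14.6 and 14.8 TPM with vehicle in Ly6G+ cells, and fell by 0.97 (limma adjusted p = 0.0111). Between 94.5% and 100% of the 31-base words of the 8 genes other than Arg2 occur in no other gene.

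Over the 6 libraries, the genes whose profile lay closest to the mean profile of the 9 were Slfn4, Fpr2, Trpm2, Itgam and Ankrd33b. Likeness was the root mean square distance between centred log2(TPM + 1) profiles, among 9215 other genes with a mean of at least 5 TPM. It was 0.052 for Slfn4, 0.055 for the formyl peptide receptor gene Fpr2, 0.090 for the ion channel gene Trpm2, 0.113 for the integrin alpha M gene Itgam and 0.114 for Ankrd33b. Of the 9 themselves, Mmp9 (0.110) and Adam8 (0.119) were nearest to their own mean, and Itgb2l (0.697) and Padi4 (0.659) farthest.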

How the data were processed

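The authors deposited 1 table of gene values, treated here as TPM because most values have decimals and library sums run from 963243.1 to 979168.3, although its name speaks of counts. TPM keeps no depth. The build mm10 and the tools kallisto, bcl2fastq and CASAVA 1.8 are named per the submitters' processing notes. The kallisto version, transcript annotation, strand setting and summing over transcripts were not stated in the sources used here. Identifiers were matched to GENCODE M21 symbols for 27458 genes, and 1529 had none. No pair of libraries held an identical value at 1 TPM or more.

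Groups came from the sample titles. limma 3.58.1 in R 4.3.3 was fitted to log2(TPM + 1), and its prior was trended and robust. A gene entered a fit where 2 or more of its libraries reached 1 TPM. Benjamini-Hochberg adjustment covered every gene in a fit, with a threshold of 0.05. On simulated data the fits returned the sizes put in, but the share of false calls lay above that threshold in each comparison, so calls near it are less certain than the adjusted p states. The pseudocount understates changes of low genes. The 9 genes and the lists were chosen with earlier results of these data known. From each list up to 4 genes were eligible for naming, first those past the treatment test in Ly6G+ by size of change, then the most expressed, and paralogues could each be named. Alternatives covered scaling, pseudocount, filter, prior, covariate, replicate number and each library left out.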

Additional observations from a re-analysis of the deposited data

How the results depend on the processing

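All 9 genes stayed higher in Ly6G+ cells than in HSCPs, with a limma adjusted p of 0.000727 at most, under all 14 alternatives tried. The populations did not overlap in any of the 9, so their direction could not change when a library was left out. Leaving out the Mdivi-1 HSCP library gave the same log2 differences as the fit within vehicle. Leaving out the vehicle HSCP library gave those of the fit within Mdivi-1, so the alternatives are not independent. The treatment calls in Ly6G+ were less stable. Of 7 genes called (5 higher, 2 lower), 2 passed with no expression filter (2 higher, 0 lower) and 1 with a prior neither trended nor robust (1 higher, 0 lower), at the same fitted changes. The replicate numbers of the titles do not pair the libraries by any label, and replicate differences correlated at -0.03 across 11775 genes between the arms. With the replicate number as a block, 3 passed (2 higher, 1 lower). Leaving out 1 library gave 0 to 3 calls, 0 to 2 higher and 0 to 1 lower. Over all genes, 789 calls became 218 without a filter, 346 under the other prior, 325 with the block and 22 to 279 with a library left out. Under other scalings and the pseudocount of 0.1, all 7 genes stayed called. The split of all calls moved from 290 higher and 499 lower to 373 and 386 after median-of-ratios scaling, and to 380 and 376 after upper-quartile scaling. Between populations it moved from 2736 and 6202 to 4157 and 4196, and to 3921 and 4518. The treatment change of Mmp25 in Ly6G+ cells changed sign, at 0.0082 without the second Ly6G+ Mdivi-1 library against -0.22 without the first. The treatment effect in Ly6G+ cells minus that in HSCPs also changed sign for Mmp25. This difference of effects was 0.054 and 0.038 under those scalings, 0.066 without the second Ly6G+ Mdivi-1 library and -0.16 without the first. That difference was called for 0 of the 9 genes under all 9 alternatives and for at most 2 genes in all. In HSCPs, 0 of the 9 genes reached a 2-fold ratio under the other scalings and the pseudocount of 0.1. That pseudocount moved the HSCP log2 ratio of Cd101 from -0.54 to -0.71. The causes of the lost calls and of the changes of sign were not tested.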

Other observations

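Among 20 tested paralogues of the 9 genes in Ly6G+ cells, 1 rose, 2 fell and 17 did not pass. The rise was that of Adam19, a membrane protease gene related to Adam8, at 44.2 and 44.7 TPM with Mdivi-1, against 28.8 and 25.1 TPM with vehicle (log2 change 0.70, limma adjusted p = 0.0194). Besides Padi2, the platelet integrin gene Itgb3 fell, at 9.21 and 9.99 TPM with Mdivi-1, against 19.2 and 17.9 TPM with vehicle (-0.88, limma adjusted p = 0.0129), and it moved with the megakaryocyte markers. Itgb2, the integrin chain that Itgb2l resembles, was at 906 and 885 TPM with Mdivi-1, against 883 and 933 TPM with vehicle, and did not pass (-0.02, limma adjusted p = 0.851). Of the metalloproteinase inhibitors, Timp2 was at 100.5 TPM in both libraries with Mdivi-1, against 104 and 108 TPM with vehicle, and did not pass (-0.07, limma adjusted p = 0.448). Reck did not pass either (-0.64, limma adjusted p = 0.216).

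Of 10 granulocyte transcription factor genes, 1 rose, 1 fell and 8 did not pass. Cebpe, whose product is needed for late granule genes in mice, was at 200.6 and 167 TPM with Mdivi-1, against 285 and 328 TPM with vehicle (-0.74, limma adjusted p = 0.0335), and Klf6 rose by 0.41 (limma adjusted p = 0.0208). Spi1, which encodes PU.1, was at -0.01 and Runx1 at -0.13, and neither passed.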
